A study of Mus musculus with 2 samples.

Results

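The 10 genes described here encode the cyclins and cyclin-dependent kinases (CDKs) that carry a dividing cell from G1 to M. They are the D-type cyclins Ccnd1, Ccnd2 and Ccnd3, the E-type cyclins Ccne1 and Ccne2, the A-type cyclin Ccna2, the B-type cyclin Ccnb1, and the kinases Cdk1, Cdk4 and Cdk6. They were chosen by name, and all 10 were found among the 21983 gene entries of the deposited table. The RNA came from 14837 cells, which are C57BL/6 mouse cells of pancreatic ductal adenocarcinoma (PDAC). They were kept for 48 h in conditioned medium, that is, medium in which cells had been grown before. The labels describe 2 libraries, 1 with medium from cancer-associated fibroblasts (CAFs, stromal cells of the tumour) and 1 with medium from 14837 cells. For both libraries they give 10% fetal bovine serum (FBS). Both groups carry whatever alterations the 14837 line has, which the labels do not list. Only the CAF-medium library is described, because the name of the other value column matched the labels of neither library. The values are therefore levels in cells kept in CAF medium, with 1 library and no replicate error, and they do not show whether the medium altered them.

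A cyclin switches on the CDK it binds. D-type cyclins accumulate when growth factors are present and pair with CDK4 and CDK6, which begin to phosphorylate the retinoblastoma protein and so release E2F transcription factors. E-type cyclins then act with CDK2 at the entry to S phase, cyclin A2 acts with CDK2 and CDK1 during S and G2, and cyclin B1 with CDK1 drives mitosis. In pancreatic ductal cancer the INK4 inhibitor gene that restrains CDK4 and CDK6 is often lost.

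The CAF-medium library held 21269197 counts, of which the 10 genes together took 36376, or 0.171%. Levels are given as counts per 1000000 counts of the library (CPM), with exact Poisson 95% intervals that cover counting error only. For these genes the half-width of the interval was between 1.93% and 9.61% of the count. The median gene, taken over the 11569 entries with at least 10 counts, stood at 37.9 CPM. The cells carried ductal keratins, with Krt18, Krt8, Krt7 and Krt19 at 1819, 797, 550.2 and 418 CPM and the adhesion gene Cdh1 at 370.0 CPM, while the epithelial marker Epcam had 2 counts. Of 9 fibroblast markers, Col1a2, Col3a1, Dcn, Lum and Thy1 were listed at 0, Pdgfrb and Acta2 had 1 and 4 counts, Col1a1 had 29, and Pdgfra, at 34.2 CPM, held most of their summed 35.8 CPM. No marker of leukocytes, endothelium, acini or islets had more than 5 counts. A gene listed at 0 is not read as unexpressed, since how genes were counted is not known here.

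RefSeq start sites (build GRCm38.p6) were found for 6 of the 10 genes. The 250 bases before the start are shown for 3 of them: Cdk4, the kinase of highest level per length, and Cdk1 and Ccnb1, the kinase and cyclin of mitosis. Capitals mark CACGTG, the E-box bound by MYC and related factors, in Cdk4. In Cdk1 and Ccnb1 they mark CCAAT, read as ATTGG on the opposite strand. In Cdk1 they also mark TTTGAA, the cell cycle homology region (CHR) of genes expressed in G2 and M, and TTTCGCGC, a form of the E2F site.
Cdk4, chr10:127063285-127063534, plus strand: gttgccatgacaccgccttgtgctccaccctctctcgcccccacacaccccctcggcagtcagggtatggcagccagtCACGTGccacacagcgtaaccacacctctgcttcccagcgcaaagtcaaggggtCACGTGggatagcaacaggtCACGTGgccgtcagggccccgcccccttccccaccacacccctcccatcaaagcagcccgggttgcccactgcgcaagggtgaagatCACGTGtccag
Cdk1, chr10:69352913-69353162, minus strand: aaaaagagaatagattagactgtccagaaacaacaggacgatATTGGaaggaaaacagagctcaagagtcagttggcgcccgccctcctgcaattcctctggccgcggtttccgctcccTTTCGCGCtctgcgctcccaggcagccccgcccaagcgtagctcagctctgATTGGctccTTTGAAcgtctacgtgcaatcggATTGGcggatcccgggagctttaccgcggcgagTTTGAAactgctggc
Ccnb1, chr13:100786487-100786736, minus strand: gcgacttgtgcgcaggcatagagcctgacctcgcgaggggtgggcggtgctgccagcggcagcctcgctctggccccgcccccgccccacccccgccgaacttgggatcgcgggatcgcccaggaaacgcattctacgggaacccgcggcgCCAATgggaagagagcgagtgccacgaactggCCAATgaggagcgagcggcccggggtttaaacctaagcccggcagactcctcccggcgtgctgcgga

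The Cdk4 window held 4 E-boxes, beginning 172, 118, 98 and 11 bases before the start. Of 32851 start windows of the same length, 6.02% held at least 1 E-box and 7 windows held 4 or more. The Cdk1 window held 3 CCAAT boxes on the opposite strand, 2 CHR matches that began 71 and 15 bases before the start, and 1 E2F match at 131 bases. CCAAT was found in 33.8% of all windows on either strand, and 2 or more times in 10.1%. TTTGAA was found in 16%, and 2 or more times in 1.81%. Any of TTTCGCGC, TTTGGCGC, TTTCCCGC or TTTGCCGC was found in 1.86%. The Ccnb1 window held 2 CCAAT boxes, at 99 and 67 bases, and neither TTTGAA nor those E2F letters. Other spellings of the CHR and of the E2F site were not searched, so this does not show that Ccnb1 lacks them. The window of Ccne1 held 4 GC boxes (GGGCGG on either strand). At least 1 GC box was found in 32.7% of windows, and 4 or more in 4.1%. The Cdk6 window held 1 E-box. Of the 2 start windows of Ccnd3, 1 held 2 GC boxes and the other held 1 CCAAT and 1 GC box. Ccnd1, Ccnd2, Ccne2 and Ccna2 were not among the 6. A match of letters describes the window, and binding at these sites was not measured.

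The D-type cyclins held most of the counts of the 10 genes. Ccnd1, the cyclin most often named as a growth factor sensor (chromosome 7, 144929931 to 144939925, minus strand, mm10), had 10318 counts, or 485 CPM (476 to 495). Ccnd2 (chromosome 6, 127125162 to 127152193, minus strand) had 8516 counts, or 400.4 CPM (392 to 409). Ccnd3 (chromosome 17, 47505051 to 47599691, plus strand) was covered by 1855 counts, which is 87.2 CPM (83.3 to 91.3). All 3 lay above the median gene, and together they took 56.9% of the counts of the 10 genes. Ccnd1 ranked 264th by CPM among the 11569 entries and Ccnd2 385th, while Ccnd3 ranked 3177th.

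Their kinases were also above the median gene. Cdk4 (chromosome 10, 127063534 to 127067920, plus strand) was covered by 5070 counts, which is 238 CPM (232 to 245). Cdk6 (chromosome 5, 3341485 to 3531008, plus strand) was covered by 3761 counts, which is 177 CPM (171 to 183). Both kinases phosphorylate the retinoblastoma protein. By CPM Cdk4 was higher than 92.2% of the entries with at least 10 counts and Cdk6 higher than 87.7%.

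The cyclins of the later phases had fewer counts. Ccne1 (chromosome 7, 38097984 to 38107534, minus strand), an activator of CDK2, had 427 counts, or 20.1 CPM (18.2 to 22.1), and was the only one of the 10 below the median gene. Ccne2 (chromosome 4, 11191351 to 11204779, plus strand), which also activates CDK2, was covered by 972 counts, which is 45.7 CPM (42.9 to 48.7). Ccna2 (chromosome 3, 36564865 to 36572150, minus strand), the cyclin of S phase and G2, had 1628 counts, or 76.5 CPM (72.9 to 80.4). Ccnb1 (chromosome 13, 100778650 to 100786570, minus strand), the mitotic cyclin, had 818 counts, or 38.5 CPM (35.9 to 41.2), and its interval includes the median gene. Cdk1 (chromosome 10, 69335146 to 69352938, minus strand), the kinase of mitosis, had 3011 counts, or 142 CPM (137 to 147).

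In all, 9 of the 10 genes exceeded the median gene (Ccnb1 by less than its counting error), beside 26.3% of all entries and, by construction, 50.0% of entries with at least 10 counts. Per kilobase of exon 9 of the 10 were again above the median gene, which stood at 8.14 CPM per kilobase, beside 26.3% of entries with a known length. Ccne1 was the exception on both scales. With the median gene taken over entries with at least 100 counts, 7 of the 10 exceeded it, and Ccne1, Ccne2 and Ccnb1 did not. The share of all entries above that higher median was not computed. The median of the 10 genes was 114 CPM.

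**Figure D1:**
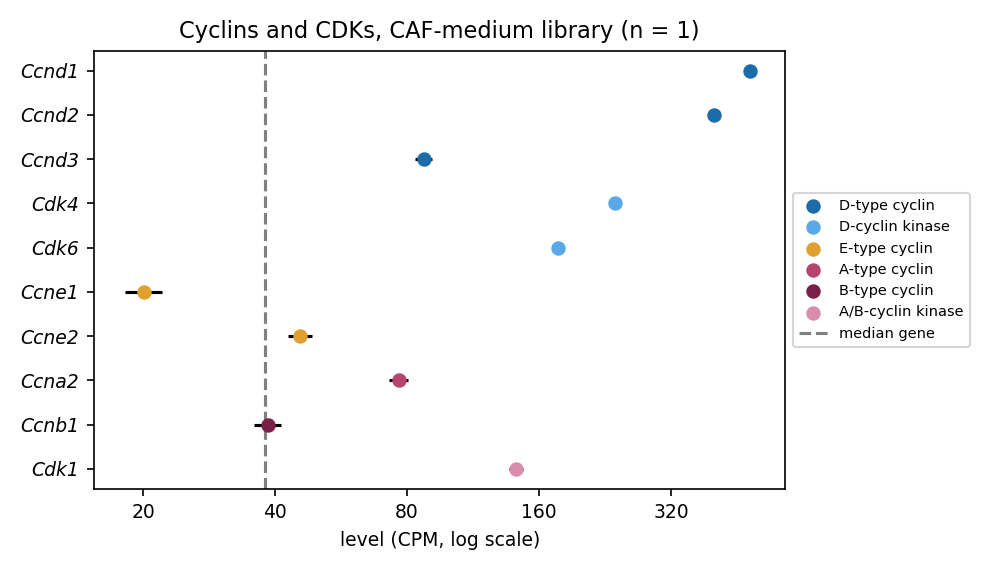
Level of each of the 10 genes in the single CAF-medium library, in CPM on a log axis, coloured by role, with exact Poisson 95% intervals as horizontal lines and the median gene at 37.9 CPM as a dashed line. Ccnd1 and Ccnd2 lie farthest right at 485 and 400.4 CPM, and Ccne1 alone lies to the left of the dashed line.

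Longer transcripts collect more counts, and these genes differ more in their untranslated ends than in their coding sequence. In the GENCODE M21 annotation of mm10 the longest coding transcripts ran from 2000 bases for Ccne1 to 11525 for Cdk6. Coding sequences, stop codon included, spanned only 870 bases in Ccnd2 to 1293 in Ccnb1. The 3′ UTR made up 88.7% of the Cdk6 transcript, 81.7% of that of Ccnd2, 76.6% of that of Cdk1 and 71.6% of that of Ccnd1. For Ccne1 it was 26.6%. The length of all exons of a gene exceeded the longest coding transcript most in Ccnd3, which has 16 coding transcripts, at 8775 against 2113 bases. Levels between genes were therefore set side by side per kilobase under 3 lengths, namely all exons, the longest coding transcript and the longest coding sequence. The whole count of a gene was divided each time. Per kilobase of coding sequence, any reads of the untranslated ends thus stay in the count while those ends leave the length. That scale therefore raises genes with long untranslated ends, and its orders and ratios depend on this.

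**Figure D2:**
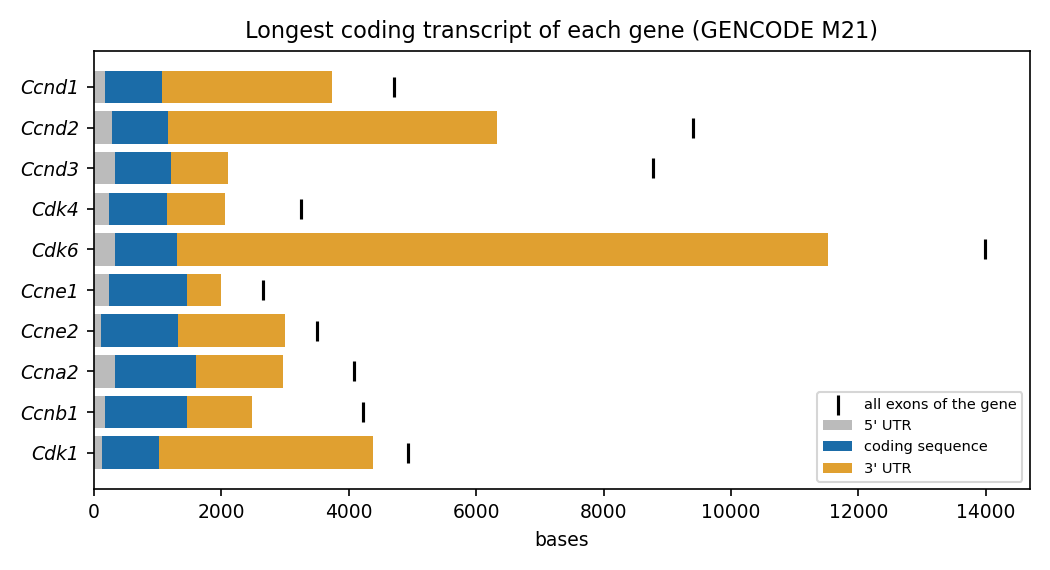
Bases of 5′ UTR, coding sequence and 3′ UTR in the longest coding transcript of each gene (stacked bars), with a black tick at the summed length of all its exons. The Cdk6 bar reaches 11525 bases, nearly all of it 3′ UTR, while the Ccnd3 tick stands at 8775 bases, far beyond its bar of 2113.

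Per kilobase of exon Ccnd1 came first, at 103 CPM per kilobase, and Cdk4 second at 73.4. Ccnd2 followed at 42.6 CPM per kilobase, Cdk1 at 28.7 and Ccna2 at 18.7. The lower levels were Ccne2 at 13.1 CPM per kilobase, Cdk6 at 12.6, Ccnd3 at 9.94, Ccnb1 at 9.12 and Ccne1 at 7.54. Of the 9 steps between neighbours in this order, only that from Ccne2 to Cdk6 had a ratio whose interval included 1 (1.03, 0.963 to 1.11). The step from Ccnd3 to Ccnb1 was close to it, at 1.09 (1.003 to 1.19). These intervals hold no spread between cultures.

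Ccnd1 was first and Ccne1 last under all 3 lengths, but the middle of the order moved. Per kilobase of the longest coding transcript Ccnd1 stood at 130 CPM per kilobase, Cdk4 at 116, Ccnd2 at 63.3 and Ccnd3, now next in order, at 41.3. On that scale Ccnb1, Cdk6 and Ccne2 stood at 15.5, 15.3 and 15.2 CPM per kilobase, and the steps between them had intervals that included 1. Per kilobase of coding sequence Ccnd2, at 460.2 CPM per kilobase, passed Cdk4 at 261, and Cdk6 came next at 180.3. The highest gene exceeded the lowest 13.7 times per kilobase of exon, 12.9 times per kilobase of transcript and 33.4 times per kilobase of coding sequence.

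**Figure D3:**
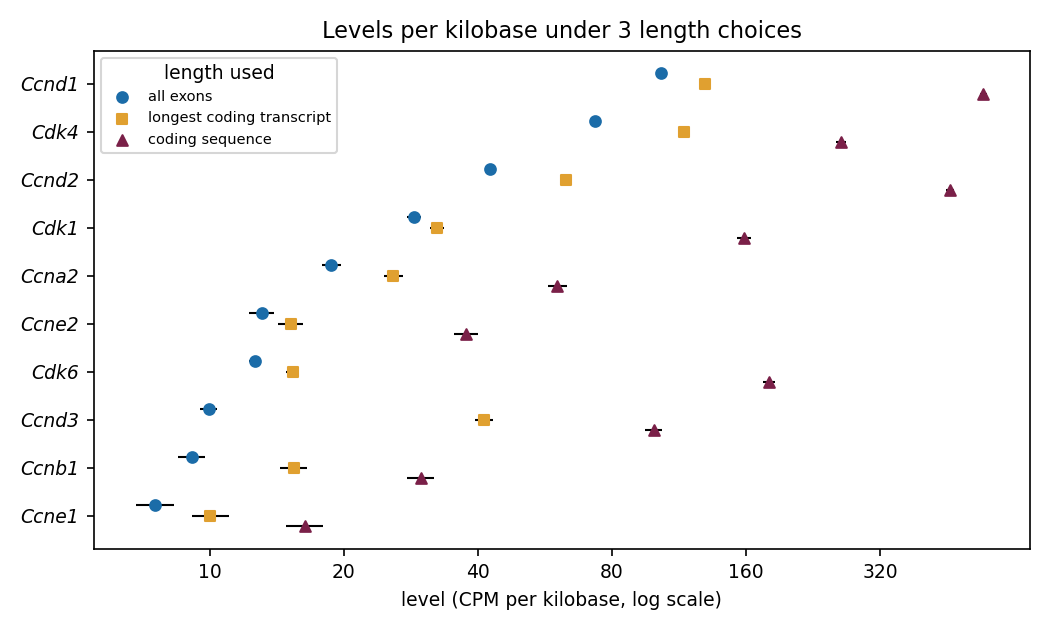
Level of each gene in CPM per kilobase on a log axis, for the length of all exons (circles), the longest coding transcript (squares) and the longest coding sequence (triangles), with Poisson 95% intervals, ordered by the first. Cdk6 moves from 12.6 to 180.3 CPM per kilobase and Ccnd3 from 9.94 to 99.2, while Ccne1 stays last on all 3 scales.

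Pairs of related genes were then compared. In all 12 pairs examined, the same gene was the higher one by plain counts and under each of the 3 lengths. Ccnd1 exceeded Ccnd2 2.42 times per kilobase of exon (2.35 to 2.49) and 1.19 times per kilobase of coding sequence. It exceeded Ccnd3 10.4 times per kilobase of exon (9.86 to 10.9) and 3.14 times per kilobase of the longest transcript. Ccnd3 was below Ccnd2, at 0.234 times its level per kilobase of exon and 0.653 times per kilobase of transcript. Of the summed D-type level, Ccnd1 thus made up 66.2% per kilobase of exon, 55.4% per kilobase of transcript and 49.4% per kilobase of coding sequence.

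Cdk4 exceeded Cdk6 under every length, but by widely different amounts. Its level was 5.80 times that of Cdk6 per kilobase of exon (5.56 to 6.06), 7.57 times per kilobase of transcript, and 1.45 times per kilobase of coding sequence. Cdk4 remained below its partner Ccnd1, at 0.712 times its level per kilobase of exon and 0.895 times per kilobase of transcript. The summed D-type cyclins exceeded the summed Cdk4 and Cdk6 1.81 times per kilobase of exon, 1.78 times per kilobase of transcript and 2.50 times per kilobase of coding sequence.

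Ccne2 was above Ccne1, which stood at 0.577 times its level per kilobase of exon (0.514 to 0.647) and 0.660 times per kilobase of transcript. The summed D-type cyclins exceeded the summed E-type cyclins 7.54 times per kilobase of exon, 9.28 times per kilobase of transcript and 20.5 times per kilobase of coding sequence. They exceeded Ccna2 8.30 times and Ccnb1 17.1 times per kilobase of exon, and 18.3 and 37.2 times per kilobase of coding sequence.

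Among the genes of S phase to M, Ccna2 exceeded Ccnb1 2.06 times per kilobase of exon (1.89 to 2.24), and Cdk1 exceeded Ccnb1 3.15 times (2.91 to 3.40) and Ccna2 1.53 times (1.44 to 1.63). Per kilobase of coding sequence Cdk1 exceeded Ccnb1 5.32 times and Ccna2 2.63 times. Cdk1 stood at 0.391 times the level of Cdk4 per kilobase of exon and 0.606 times per kilobase of coding sequence. Against genes outside the 10, Cdk1 exceeded Cdk2, the partner of E-type cyclins, 5.30 times per kilobase of exon and 2.31 times per kilobase of transcript. Ccnb1 exceeded its paralog Ccnb2, which had 149 counts, 1.99 times per kilobase of exon, 3.38 times per kilobase of transcript and 5.08 times per kilobase of coding sequence.

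**Figure D4:**
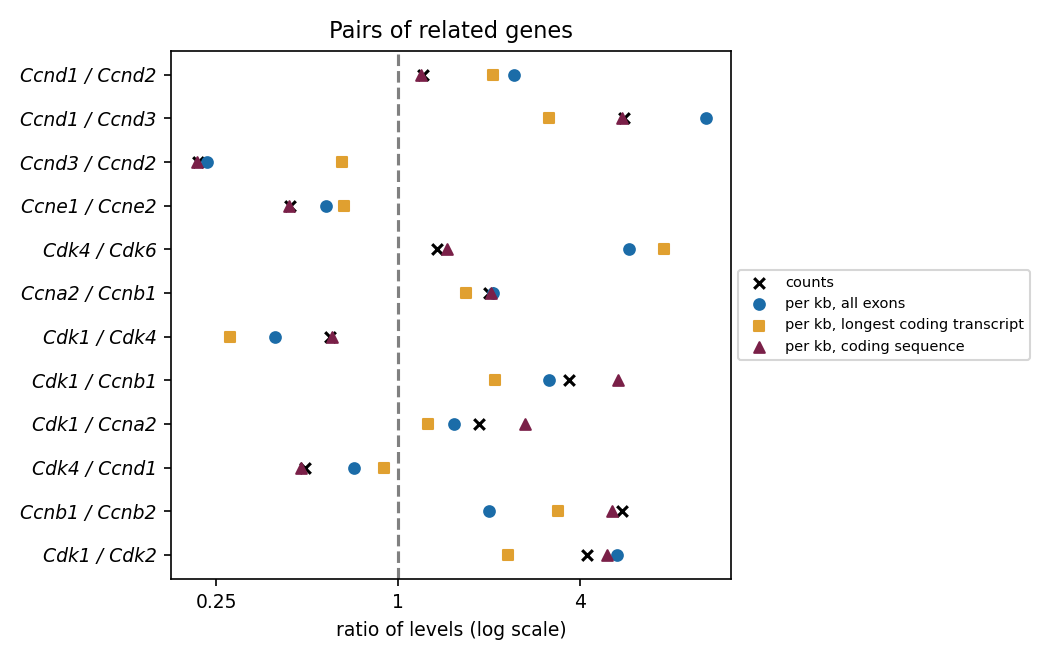
Ratio of the level of the first gene to the second in 12 pairs, on a log axis, by plain counts (crosses) and per kilobase under 3 lengths, with equality as a dashed line. No pair has points on both sides of the line, and the Cdk4 to Cdk6 ratio spans 1.35 to 7.57.

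Several of these levels may include reads of other genes. In Ccnb1, 38.2% of the 64-base windows of the longest coding transcript were also found in transcripts of other genes, among them the processed copy Ccnb1-ps, so its level and its ratios are uncertain. The share was 4.65% in Ccnd3, 0.42% in Cdk6 and 0 in the other members. Genes on the opposite strand overlapped 23.4% of the exonic bases of Ccnd1, 19.7% of those of Cdk4 (Tspan31, 1259 counts), 17.4% of those of Ccne2 (Ints8, 806 counts) and 12.5% of those of Ccna2 (Exosc9, 2564 counts). Smaller overlaps with genes on the opposite strand were 7.86% in Ccnd2, 4.11% in Ccnd3 (Bysl, 1780 counts) and 2.63% in Cdk6. The strand setting of the counting is not given in the sources used here, so reads from these stretches cannot be assigned to 1 gene.

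The same genes were placed among their whole families, taken as entries named Ccn or Cdk with a letter or number. There were 26 such cyclin entries and 19 CDK entries. Per kilobase of exon Ccnd1 ranked first of the cyclins, and Ccnd2 came after Ccnk (49.3 CPM per kilobase) and Ccni (45.6). Cdk4 ranked first of the CDKs, followed by Cdk11b (35.8 CPM per kilobase) and Cdk1. Per kilobase of the longest coding transcript Ccnd1 and Cdk4 again ranked first, but the places below them changed. There Ccnd2 came after Ccnl1 (80.8 CPM per kilobase) and Ccng2 (75.0), and before Ccnk and Ccni. Cdk1 came after Cdk9 (52.5 CPM per kilobase), Cdk8 (49.0) and Cdk11b (42.4). Cyclin K, a partner of the transcriptional kinases CDK12 and CDK13, is among the family members with roles outside the cell cycle. The 7 cyclins of G1 to M held 45.5% of all counts of the cyclin entries, and Cdk1, Cdk4 and Cdk6 held 35.3% of those of the CDK entries. Ccnk, Ccni, Ccnl1, Cdk8, Cdk9 and Cdk11b were named after their values were seen.

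Of 69 genes in 7 lists of regulators around these cyclins and kinases, 65 had at least 10 counts and 39 exceeded the median gene. Beside this count and those of the single lists below, 26.3% of all entries exceeded it. Among entries with at least 10 counts the share was 50.0% by construction. Pkmyt1 (37.0 to 42.4 CPM), Plk1 (35.7 to 41.0) and E2f2 (35.5 to 40.8) are counted as above the median gene, but their intervals include it. In the list of 13 other cyclins and CDKs of the cycle, which also holds Mnat1, 3 genes exceeded the median gene. These were Ccng2, a cyclin linked to cell cycle exit, at 211 CPM, Mnat1, the assembly factor of the CDK-activating kinase, at 88.9 CPM, and Cdk16 at 73.4 CPM. Cdk2 stood at 33.7 CPM, and Ccna1 and Ccnb3, which are known mainly from germ cells, were listed at 0.

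Several CDK inhibitor genes stood well above the median gene. Of 7 inhibitors, 4 exceeded the median gene. Cdkn2a, which encodes the CDK4 and CDK6 inhibitor p16INK4a and, in another frame, p19ARF, stood at 233 CPM (226 to 239), with 4954 counts. Its order against Ccnd1 depended on the length. It stood at 199 CPM per kilobase of exon, above Ccnd1 at 103, and at 260.2 CPM per kilobase of transcript, above Ccnd1 at 130, but at 457 CPM per kilobase of coding sequence, below Ccnd1 at 546. Counts per gene do not separate its 2 products. Cdkn1a, which encodes p21, stood at 145 CPM, Cdkn1b, which encodes p27, at 103 CPM, and the INK4 gene Cdkn2b at 80.3 CPM. Cdkn1c was listed at 0.

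The factors downstream of the D-type cyclin kinases were nearer the middle. In the list of RB family, E2F and DP factors 8 of 13 genes exceeded the median gene, with a list median of 43.3 CPM. The repressor E2f4 led at 128 CPM, followed by the E2F partner Tfdp1 at 121 CPM, for which 22.9% of windows were shared, E2f3 at 73.0 CPM and the RB relative Rbl1 at 70.1 CPM. The activator E2f1 stood at 58.3 CPM and Rb1 itself at 32.6 CPM, below the median gene.

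Genes that set CDK activity varied widely. Of 8 genes of CDK phosphorylation and docking, 4 exceeded the median gene. Cdc37, the co-chaperone that loads CDK4 onto HSP90, stood at 288 CPM, the CDK subunit Cks1b at 155 CPM, the activating phosphatase Cdc25a at 94.6 CPM and the inhibitory kinase Pkmyt1 at 39.6 CPM. Of 14 genes of cyclin degradation, 10 exceeded the median gene. The anaphase-promoting complex subunit Cdc27 stood at 227 CPM, the SCF ligase subunits Skp1a and Cul1 at 220.3 and 155 CPM, and Ambra1, the adaptor that directs D-type cyclins to destruction, at 86.7 CPM. Skp2, the F-box protein that targets p27, was listed at 0.

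Activators of mitotic genes and proliferation markers were uneven as well. Of 6 genes of the MuvB, B-MYB and FOXM1 group, 3 exceeded the median gene, with Lin54 at 80.1 CPM, Foxm1 at 61.1 CPM and Lin9 at 58.3 CPM, while Mybl2 stood at 33.9 CPM with 22.7% of its windows shared. Of 8 proliferation markers, 7 exceeded it. Top2a and Mcm2 stood at 365 and 297 CPM, and Mcm5 and Pcna at 190.4 and 163 CPM. Pcna shared 27.5% of its windows with other genes. The list median was 145 CPM, beside 114 CPM for the 10 cyclins and CDKs.

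**Figure D5:**
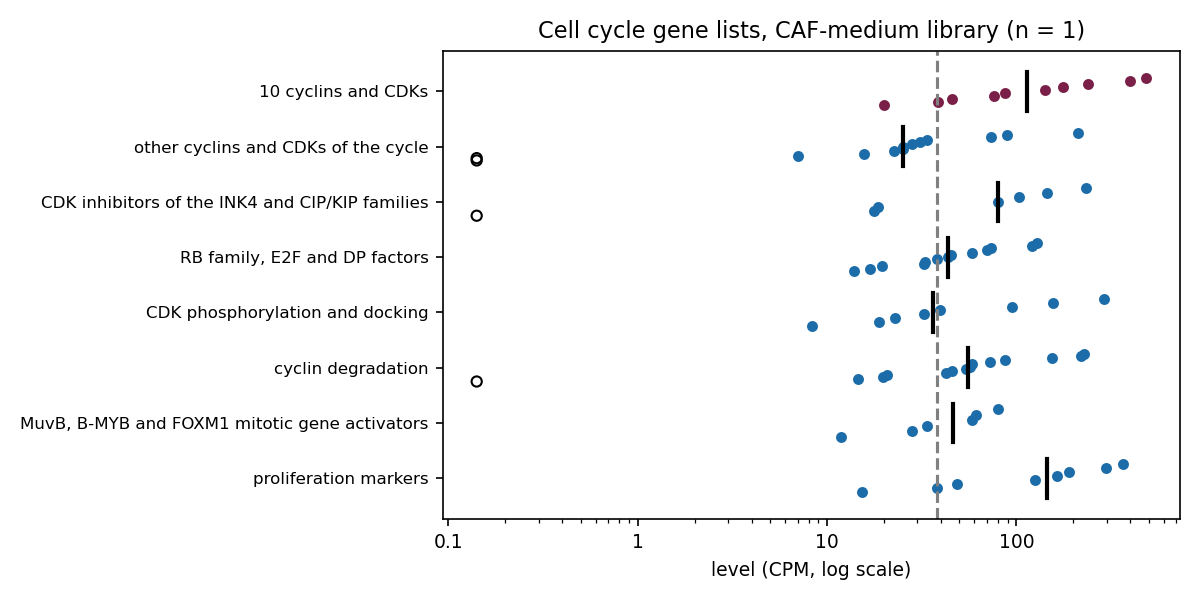
Level of every gene in 7 cell cycle lists and of the 10 cyclins and CDKs, in CPM on a log axis, with each list's median as a black bar, the median gene as a dashed line, and genes listed at 0 as open circles at 0.141 CPM, the limit that 3 counts set. The medians run from 25.2 CPM for the other cyclins and CDKs to 145 CPM for the proliferation markers.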

How the data were processed

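The submitters' processing notes name HISAT2 2.1.0, StringTie and the build mm10 without saying what each did. For the counting step, its strand setting and its gene models, no details are given in the sources used here. What the authors deposited are whole-number counts, 1 per gene symbol, with no scaling. The CAF column was tied to its library by the sample title. The name of 1 further value column matched neither library, so it entered no computation and the planned comparison of the 2 media was not made. CPM is a count per 1000000 of the 21269197 counts in the library. Lengths and positions came from GENCODE M21 (GRCm38, the mm10 assembly), in which 99.6% of symbols were found, and start-site sequences from RefSeq (GRCm38.p6). Windows of 64 bases every 16 bases were searched in all annotated transcripts outside the gene's own locus. Ratio intervals are exact binomial (Clopper-Pearson) 95% intervals. All intervals cover counting error only, since reads may be copies of 1 molecule. The coverage of the intervals was tested on counts drawn from a Poisson model. That model is the one the intervals assume and holds no copied reads, so the test cannot show their coverage on these data. For a count of 0 the limit is 3 counts, or 0.141 CPM. No test between groups was made.

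The 10 genes, the lists and the 12 pairs were chosen with earlier results of these data known. Named list genes are the 4 highest of each cell cycle list with at least 100 counts, those under 10 counts, and Cdk2, Cdkn1a, Cdkn1b, Cdkn2a, Rb1, E2f1 and Foxm1. E2f2 and Plk1 were named after their values were seen. The alternatives were another library total, 3 lengths, and other count minimums. Python 3.11.15, numpy 2.4.6, pandas 2.3.3, scipy 1.17.1 and matplotlib 3.10.9 were used.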

Additional observations from a re-analysis of the deposited data

How the results depend on the processing

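No paired analysis was possible because only 1 library was used. The number of the 10 genes above the median gene was 9 with the library total over all entries, with mitochondrial, date-named and ribosomal protein entries left out (a total of 20345933), and under each of the 3 lengths. In an alternative chosen after seeing the data it was 9 with the median gene taken over entries with at least 1 count. With at least 100 counts it was 7, and Ccne1, Ccne2 and Ccnb1 lay at percentiles 23.1, 46.5 and 41.3. The shares of all entries above these other medians were not computed. The median percentile of the 10 genes was 78.1 among entries with at least 10 counts, 81.8 with a minimum of 1 count, 74.1 with a minimum of 100 counts and 68.3 by CPM per kilobase of exon. In 8 of 12 pairs the first gene was the higher one, by counts and under each length. Of the 69 genes in the cell cycle lists, 39 exceeded the median gene, beside 26.3% of all entries. The number was 48 with the median taken over entries with at least 1 count. That median is lower, and the larger share of all entries above it was not computed. Per kilobase of exon the number was 44, beside 26.3% of entries with a known length. No ratio of a pair changed direction in the alternatives run. Of 96 single levels, percentiles and ratios under an alternative, 88 moved beyond their counting interval. Most of these alternatives used another length or ranked among other entries. Such moves follow largely from the change of scale, so their number does not measure how steady the data are. The ratios of the 2 media, with their scaling and pseudocount alternatives, were not run. Counts from 10 to 99 were multiples of 3 in 36.0% of the 1789 entries concerned, beside 33.3% of the whole numbers in that range. This difference was not tested, and the 33.3% takes every whole number in the range as equally likely. Whether low counts are plain read numbers is not known, and if they are not, the intervals may be too narrow. Among counts of at least 1000 the share was 33.1%. Each of the 10 genes had more than 400 counts, so depth limits them less than the absence of a second culture does.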
